A study of Homo sapiens with 4 samples.

Results

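The HLA class I antigen presentation genes were described in MCF10A, a non-tumorigenic line of human breast epithelial cells, in 9 members taken from the 63856 rows of the count table by their Ensembl identifiers and, in the table of normalised values, by their symbols. The members are the heavy chain genes HLA-B, HLA-C, HLA-E and HLA-F, the light chain gene B2M, and the peptide transport, loading and trimming genes TAP1, TAP2, TAPBP and ERAP1. The WT group held 2 libraries of unmodified cells and the HSF1-pLVX group 2 libraries of cells transduced with a lentivirus that carries HSF1 cDNA in the pLVX-Puro plasmid and selected with puromycin. All libraries were made from total RNA depleted of ribosomal RNA, and all cells grew in the same medium with horse serum, insulin, hydrocortisone, EGF and cholera toxin. No library of empty-vector cells was used here, and the HSF1 transgene, the vector and the selection therefore cannot be told apart. The study calls the replicates biological. The labels do not say whether these were separate cultures, or whether the transduced cells were 1 clone. The p-values therefore measure the spread between these libraries only. The question of the comparison is which genes differ between cells with stable HSF1 overexpression and WT cells.

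Class I molecules are pairs of a polymorphic heavy chain and beta-2 microglobulin, the product of B2M, that show peptides from inside the cell to CD8+ T cells. Peptides are cut by the proteasome, carried into the endoplasmic reticulum by the transporter formed by TAP1 and TAP2, trimmed there by the aminopeptidase ERAP1, and loaded onto the heavy chain with the help of tapasin, the product of TAPBP. Most of these genes respond to interferons, through IRF1 and the coactivator NLRC5, among others, and nearly all nucleated cells, epithelial cells included, express them.

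The libraries held 18688109 to 24184285 counts. HSF1, which checks the labels, was measured at 200.4 and 189.2 CPM in the WT libraries and at 982.4 and 998.6 CPM in the HSF1-pLVX libraries, a log2 fold change of 2.35 (SE 0.0999). CPM is the number of counts of a gene per 1000000 counts of its library, with library sizes adjusted by trimmed-mean (TMM) scaling. All 14 mammary epithelial markers listed were detected, while the listed leukocyte markers PTPRC and TYROBP were at 0 counts in all 4 libraries. For PTPRC, 34.2% of exon windows of 76 bases were found at 1 place in the reference, a limit described below. In every library, 12 of 16 leukocyte markers stayed under 1 CPM. The summed level of the leukocyte list was 75.7 and 77.9 CPM in WT and 41.4 and 41.9 CPM in HSF1-pLVX, mostly CSF1R and CORO1A. Of the 4 markers tested, these 2 were lower (log2 fold change -2.42 and -0.84), and ITGAM (2.71) and LAPTM5 (2.21) were higher. The part of these genes in the results below was not tested. The epithelial markers themselves differed between the groups, with 3 of 14 higher and 10 lower in HSF1-pLVX cells. Among all genes tested, 32.7% were higher and 33.2% lower.

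Members differ in how much of their sequence is found at 1 place in the reference. Paired-end reads of 76 bases were aligned to hg38 (GRCh38). The count table also lists rows on alternative contigs, which are other versions of the same stretch of a chromosome in the reference. Below are the opening 76 bases of exon 2 on chromosome 6, which encode part of the peptide-binding domain, for HLA-B (chr6:31356882-31356957, minus strand), HLA-C (chr6:31271793-31271868, minus strand) and HLA-E (chr6:30489726-30489801, plus strand), followed by the same stretch on the contigs named, each 5′ to 3′, with capitals where a contig differs from chromosome 6 of the same gene. They are shown because, within this stretch, the versions of a gene can be told apart only by these differences.
HLA-B, chromosome 6: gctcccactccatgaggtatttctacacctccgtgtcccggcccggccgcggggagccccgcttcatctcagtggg
HLA-B, GL000251.2: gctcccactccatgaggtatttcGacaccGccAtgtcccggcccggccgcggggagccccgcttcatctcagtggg
HLA-B, GL000254.2: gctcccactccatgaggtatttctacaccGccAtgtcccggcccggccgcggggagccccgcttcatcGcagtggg
HLA-B, GL000255.2: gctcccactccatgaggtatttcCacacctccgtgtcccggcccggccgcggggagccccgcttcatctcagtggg
HLA-B, GL000253.2: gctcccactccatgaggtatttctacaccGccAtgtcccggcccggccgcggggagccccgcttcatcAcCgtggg
HLA-C, chromosome 6: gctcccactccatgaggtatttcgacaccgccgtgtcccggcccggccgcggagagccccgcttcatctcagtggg
HLA-C, GL000254.2: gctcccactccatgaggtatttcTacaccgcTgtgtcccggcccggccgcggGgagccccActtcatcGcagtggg
HLA-E, chromosome 6: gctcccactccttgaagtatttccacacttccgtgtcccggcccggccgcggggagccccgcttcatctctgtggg

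The HLA-B stretch differed from chromosome 6 at 1 to 4 bases on each of 5 contigs. The HLA-C stretch was identical on 2 of 6 contigs and differed at up to 5 bases on the others. The HLA-E stretch was identical on 6 of 6 contigs, so that a read from it has several equal places. Counted over all exons, the share of 76-base windows found at 1 place only in the reference used here was 44% for HLA-B, 15.8% for HLA-C, 12.1% for B2M, 6.28% for HLA-F, 1.38% for TAP2, 0% for HLA-E, TAP1 and TAPBP, and 100% for ERAP1. The handling of reads with several places is not given in the sources used here. The part of shared sequence in the counts was not tested. B2M, with 12.1% of its windows at 1 place, is among the members with the most counts. A count of 0 below is given as a count of that row only.

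HLA-B and HLA-C, the 2 measured class I heavy chain genes, and B2M, their shared light chain, were lower in HSF1-pLVX than in WT cells, and ERAP1 was higher. The levels fell 2.32-fold for HLA-B, 2.10-fold for HLA-C and 1.77-fold for B2M, and that of ERAP1 rose 1.30-fold. With bulk RNA, fewer cells of a type and less RNA per cell cannot be told apart. Of 9 members, 4 had enough counts on their main-chromosome row to be tested, and 3 of these were called lower and 1 higher at an adjusted p of 0.05 in edgeR's quasi-likelihood test. Among the 15830 genes tested, 65.9% were called in either direction, 33.2% lower and 32.7% higher, and the median log2 fold change was 0.0193, against -0.95 over the 4 members tested. The other 5 members were too low to test on these rows.

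**Figure D1:**
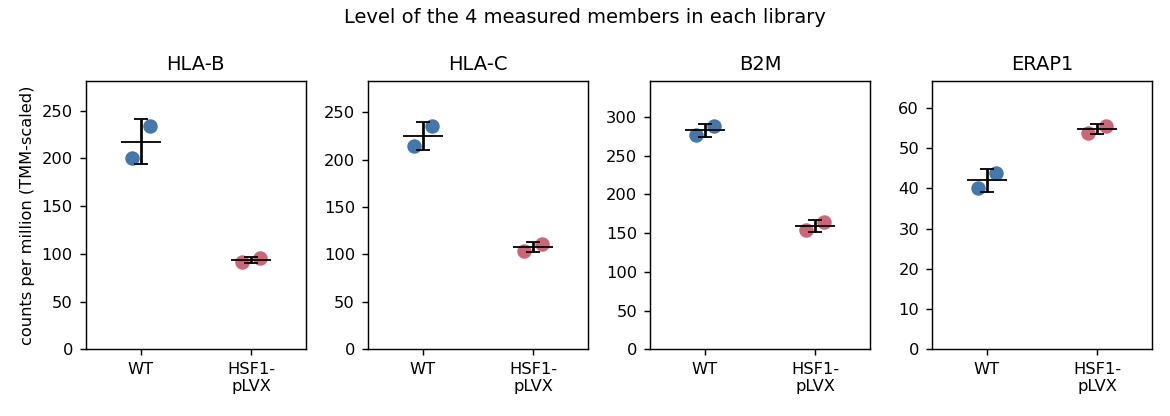
Level of HLA-B, HLA-C, B2M and ERAP1 in each library, in TMM-scaled CPM on a linear axis from 0. Points are libraries, wide bars the group mean and whiskers the SD (n = 2 per group). HLA-B lies at 200.8 to 234.2 CPM in WT and at 91.4 to 95.8 CPM in HSF1-pLVX.

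HLA-B (ENSG00000234745.10, chr6:31269491-31357188, minus strand) encodes a classical heavy chain. Its row held 4397 and 3731 counts in WT and 2405 and 1815 in HSF1-pLVX, or 234.2 and 200.8 against 95.8 and 91.4 CPM. Both HSF1-pLVX libraries lay below both WT libraries. The mean was 217.5 ± 23.6 CPM (SD, n = 2) in WT and 93.6 ± 3.14 CPM in HSF1-pLVX, a log2 fold change of -1.22 (SE 0.0970, 95% interval -1.43 to -1.01) with an adjusted p of 6.40e-08 in edgeR's quasi-likelihood test. This fall ranked at the 11.2 percentile of the log2 fold changes of all genes tested. The changes of HLA-C, B2M and ERAP1 ranked at the 13.1, 17.6 and 66.6 percentiles. Within replicate numbers the log2 differences were -1.29 and -1.14.

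HLA-C (ENSG00000204525.16, chr6:31268749-31272130, minus strand) encodes the classical heavy chain that is also the main ligand of killer cell immunoglobulin-like receptors. Its levels were 235.6 and 214.6 CPM in WT and 111.2 and 103.7 CPM in HSF1-pLVX, again without overlap. The log2 fold change was -1.07 (SE 0.0918, 95% interval -1.26 to -0.87, adjusted p 1.42e-07 in edgeR). The annotated span of HLA-B reaches over HLA-C, and the exons of the 2 genes share 35 bases.

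B2M (ENSG00000166710.17, chr15:44711477-44718877, plus strand) lies outside the HLA region. It was measured at 276.4 and 288.6 CPM in WT and at 165.0 and 154.2 CPM in HSF1-pLVX. The HSF1-pLVX libraries were lower than either WT library, with a log2 fold change of -0.82 (SE 0.0898, 95% interval -1.02 to -0.63, adjusted p 1.66e-06 in edgeR). Although most of its exon windows recur on an alternative contig of chromosome 15, 98.7% to 99.2% of its counts in each library were on the main row.

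Of the ratios between members within a library, HLA-B held 0.847 and 0.696 counts per count of B2M in WT and 0.581 and 0.593 in HSF1-pLVX. HLA-B per HLA-C was 0.994 and 0.936 in WT and 0.862 and 0.881 in HSF1-pLVX. HLA-C per B2M was 0.852 and 0.744 in WT and 0.674 and 0.673 in HSF1-pLVX. On main rows the WT libraries were the higher ones in all 3 ratios, which are not independent, since each follows from the other 2. With alternative rows added, HLA-B per B2M (1.54 and 1.24 against 1.07 and 1.09) and HLA-B per HLA-C (0.917 and 0.840 against 0.711 and 0.728) still did not overlap between the groups, while HLA-C per B2M did, at 1.68 and 1.48 in WT and 1.51 and 1.49 in HSF1-pLVX. An exact permutation test of 2 against 2 libraries cannot give a p below 0.333 (two-sided), so no p is given for them.

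ERAP1 (ENSG00000164307.12, chr5:96760810-96808100, minus strand), the trimming aminopeptidase, moved the other way. It was at 43.95 and 39.99 CPM in WT and at 55.57 and 53.81 CPM in HSF1-pLVX, a log2 fold change of 0.38 (SE 0.0875, 95% interval 0.19 to 0.57, adjusted p 0.00147 in edgeR). Its exons share 299 bases, 3.76% of their length, with CAST on the opposite strand, which fell (log2 fold change -0.86). The strand setting of the counting is not given in the sources used here, so reads from these bases could belong to either gene.

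Per kilobase of exon, the level in WT ran from HLA-C (93.98 and 85.60 CPM per kilobase) over HLA-B (76.76 and 65.81) and B2M (45.39 and 47.40) to ERAP1 (5.53 and 5.03). In HSF1-pLVX the order was the same, with HLA-C at 44.36 and 41.36, HLA-B at 31.40 and 29.94, B2M at 27.10 and 25.32 and ERAP1 at 6.99 and 6.77 CPM per kilobase. No 2 neighbours in these orders overlapped between their libraries. Because the share of exon windows with 1 place runs from 12.1% to 100% among these genes, the order is one of counted reads and need not be that of transcripts.

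HLA-E, HLA-F, TAP1 and TAP2 had 0 counts in all 4 libraries on their main-chromosome rows, which allows up to 3 counts per library, a level of 0.12 to 0.161 CPM. HLA-E (ENSG00000204592.8) and HLA-F (ENSG00000204642.13) encode non-classical heavy chains, the former the ligand of the natural killer cell receptor NKG2A. TAP1 (ENSG00000168394.10) and TAP2 (ENSG00000204267.13) are the subunits of the peptide transporter. TAPBP (ENSG00000231925.11), which encodes tapasin, had 5 and 6 counts in WT and 8 and 0 in HSF1-pLVX. The limit covers counting error only and does not reach reads that were not assigned to the row.

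The zeros were shared by the region. From HLA-F to TAPBP (chr6:29722775-33314387), 119 of 146 protein-coding rows were at 0 in all libraries (81.5%), against 152 of 881 on the rest of chromosome 6 (17.3%). Of the 98 rows with under 1% of windows at 1 place, 86 were at 0, and of the 44 rows with 1% to 50%, 29 were. The 4 rows above 50% were at 0 as well. These are HLA-DRB1, HLA-DRB5, HLA-DQA1 and HLA-DQB1, which are class II genes, and why they were at 0 was not tested.

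**Figure D2:**
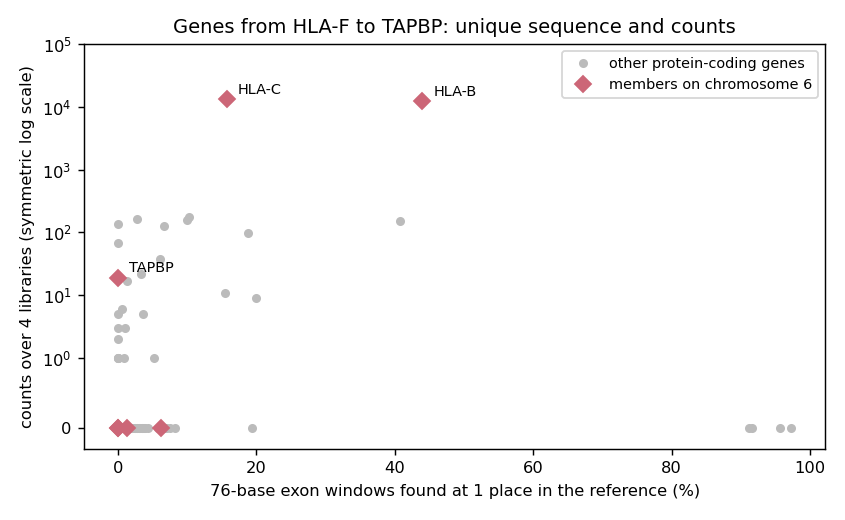
Counts summed over the 4 libraries (symmetric log axis, linear below 1) against the percent of 76-base exon windows found at 1 place, for the 146 protein-coding genes from HLA-F to TAPBP. Diamonds are members, of which HLA-B (44% of windows) and HLA-C (15.8%) stand above all other genes and HLA-E, HLA-F, TAP1 and TAP2 lie at 0.

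Counts of members also stood on alternative contigs, which the rule for the members left out. By exon sequence, 42 such rows belonged to 8 members, and 24 of them held counts. Of 14 rows with enough counts to test, 9 were lower in HSF1-pLVX, 0 were higher and 5 were not called at adjusted p 0.05 in edgeR. At an unadjusted p under 0.05, 0 of the 14 were higher in edgeR, and DESeq2's Wald test and limma-voom each called 0 of them higher as well, the former with 6 and the latter with 9 lower. Of all genes tested, 32.7% were higher and 33.2% lower. Several of the rows are versions of 1 gene among which its reads are divided. The row counts are therefore not counts of separate genes, and are unlike these shares. HLA-B had 1806 and 1547 counts in WT and 1045 and 786 in HSF1-pLVX on GL000251.2 (log2 fold change -1.14, SE 0.0926). On GL000254.2 it had 1238 and 871 against 655 and 458 counts (-1.20, SE 0.135), and on GL000255.2 543 and 460 against 287 and 198 (-1.32, SE 0.122). All 3 rows were called lower, as the main row was. On GL000253.2 HLA-B had 82 and 66 against 99 and 101 counts, a log2 fold change of 0.18 (SE 0.215, adjusted p 0.480) that was not called.

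HLA-C was split nearly evenly between chromosome 6 and GL000254.2, where it had 4306 and 3916 counts in WT and 3471 and 2538 in HSF1-pLVX. That row fell by 0.73 on the log2 scale (SE 0.0914, adjusted p 7.05e-06 in edgeR), and the main row by 1.07; the difference was not tested. The share of all HLA-C counts on chromosome 6 was 50.2% (95% Wilson interval 49.2 to 51.3) and 50.04% (48.95 to 51.1) in WT, and 44.2% (43.0 to 45.4) and 44.5% (43.1 to 46.0) in HSF1-pLVX. The intervals of the 2 groups do not overlap, and they cover counting error only. For HLA-B the share on chromosome 6 was 54.4% and 55.8% in WT and 53.5% and 53.9% in HSF1-pLVX.

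**Figure D3:**
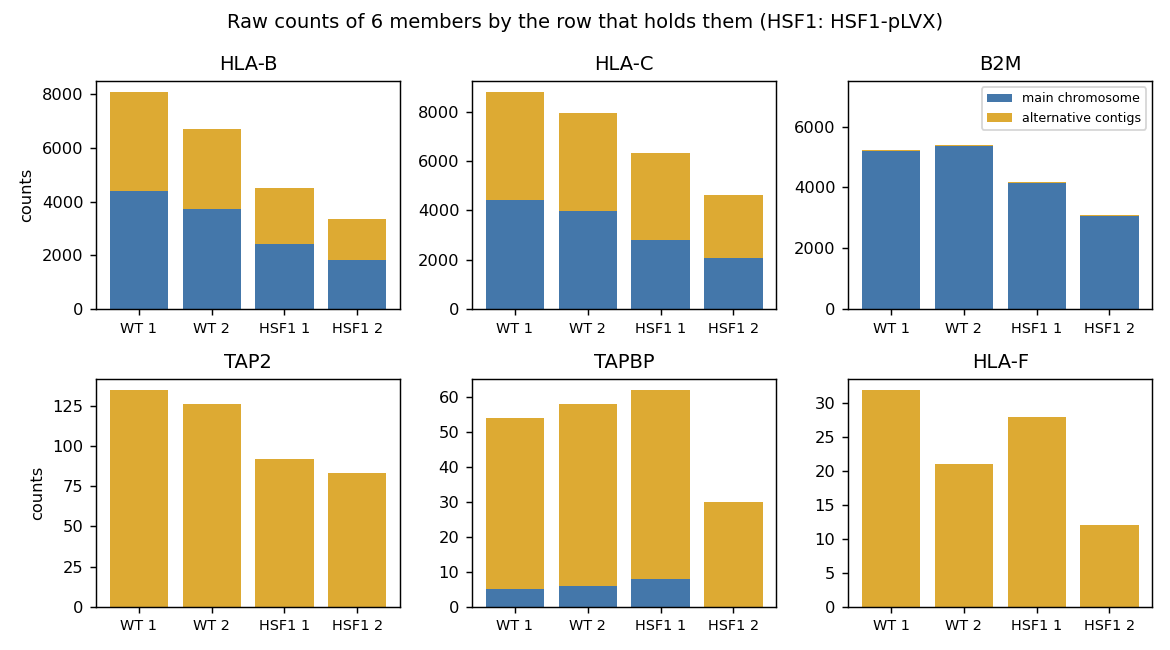
Raw counts of 6 members in each library on a linear axis from 0, split into the main-chromosome row and the alternative-contig rows. HLA-C divides at 50.2% and 50.04% on chromosome 6 in WT and 44.2% and 44.5% in HSF1-pLVX, B2M lies almost wholly on the main row, and TAP2 and HLA-F only on alternative contigs.

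With main and alternative rows added for each gene, 7 members could be tested, of which 4 were lower, 1 higher and 2 not called, where 33.2% of all genes tested were lower. TAP2 then had 135 and 126 counts in WT and 92 and 83 in HSF1-pLVX, which is 7.19 and 6.78 against 3.67 and 4.18 CPM. Both HSF1-pLVX libraries lay below both WT libraries, and the log2 fold change was -0.84 (SE 0.182, adjusted p 9.56e-04 in edgeR). TAPBP had 54 and 58 against 62 and 30 counts (log2 fold change -0.57, SE 0.277, adjusted p 0.0842), with the HSF1-pLVX libraries far apart. HLA-F had 32 and 21 against 28 and 12 counts, all on GL000256.2 (log2 fold change -0.68, SE 0.367, adjusted p 0.115). HLA-E reached 9 and TAP1 10 counts over the 4 libraries and stayed untested. The sums gave -1.18 for HLA-B, -0.89 for HLA-C, -0.82 for B2M and 0.38 for ERAP1, all still called.

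**Figure D4:**
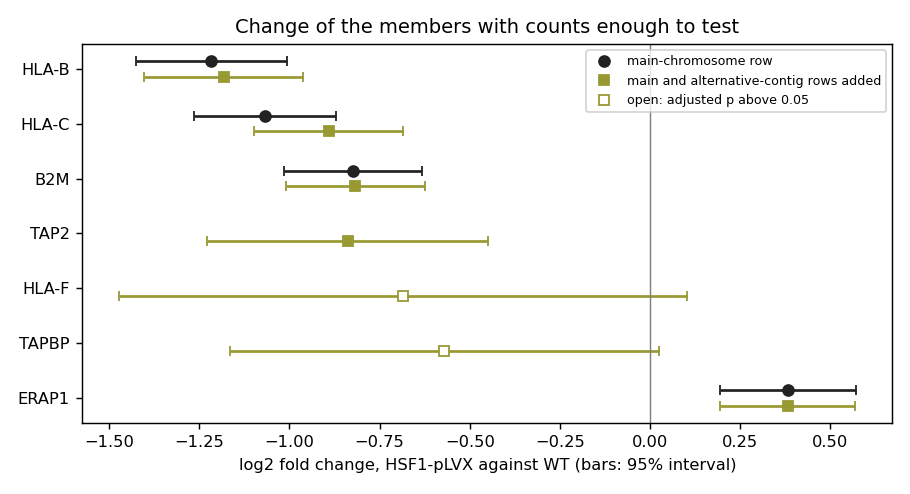
Log2 fold change of HSF1-pLVX against WT with 95% intervals, for the main-chromosome row (circles) and for main and alternative rows added (squares), with open symbols above an adjusted p of 0.05. HLA-B (-1.22 and -1.18), HLA-C (-1.07 and -0.89), B2M (-0.82 both ways) and TAP2 (-0.84, sum only) lie left of 0 and ERAP1 (0.38) right of it, while the intervals of HLA-F and TAPBP include 0.

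The promoters of the 3 members that fell are shown as the bases before the RefSeq gene start that lie outside the counted row (GRCh38.p14, 5′ to 3′ on the strand of the gene), with motif matches in capitals. They are chr6:31357189-31357429 (minus) for HLA-B, chr6:31272131-31272342 (minus) for HLA-C and chr15:44711267-44711476 (plus) for B2M.
HLA-B promoter: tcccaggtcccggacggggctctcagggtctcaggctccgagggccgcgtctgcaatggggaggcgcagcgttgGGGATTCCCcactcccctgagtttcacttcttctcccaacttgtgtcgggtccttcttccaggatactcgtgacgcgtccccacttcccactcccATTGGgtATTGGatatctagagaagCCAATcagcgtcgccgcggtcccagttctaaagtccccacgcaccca
HLA-C promoter: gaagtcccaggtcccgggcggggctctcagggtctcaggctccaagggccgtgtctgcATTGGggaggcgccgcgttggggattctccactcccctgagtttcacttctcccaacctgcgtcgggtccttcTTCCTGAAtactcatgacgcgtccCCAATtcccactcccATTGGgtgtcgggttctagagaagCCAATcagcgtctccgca
B2M promoter: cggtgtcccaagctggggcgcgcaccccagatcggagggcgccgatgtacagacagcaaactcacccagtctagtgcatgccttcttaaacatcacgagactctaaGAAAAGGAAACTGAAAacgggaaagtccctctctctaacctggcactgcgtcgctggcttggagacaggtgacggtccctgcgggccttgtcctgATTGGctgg

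The motifs searched, on both strands of the 250 bases before the start, were the interferon-stimulated response element (2 units of GAAA with 2 bases between them), a kappa B core (GGGANTCCC), the 2 arrangements of heat shock element units (GAANNTTC and TTCNNGAA), the CCAAT box (CCAAT) and the cyclic AMP response element (TGACGTCA). B2M held 2 overlapping matches of the interferon-stimulated response element, a motif in 3.02% of the 35116 RefSeq promoters of the same length. Matches of this element were also in the promoters of HLA-F, TAP1, TAP2 and TAPBP, but not in those of HLA-B, HLA-C and ERAP1. HLA-B held the kappa B letters, found in 0.772% of promoters. HLA-C held 1 match of TTCNNGAA, found in 6.62%. CCAAT boxes were in all 3 of the promoters shown and in 32.0% of all, and also in those of HLA-F, TAP1 and ERAP1. A match is a description of letters and not a site. A site whose letters differ from these patterns is missed, so a promoter without a match is not shown to lack one.

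Around the members, the genes that prepare and load peptides went both ways. Of 10 other loading and trimming genes tested, 4 were higher, 1 was lower and 5 were not called. Their median log2 fold change was 0.21. Over all genes tested, 32.7% were higher and 33.2% lower, with a median of 0.0193. THOP1, a cytosolic peptidase that destroys peptides, rose 1.12 on the log2 scale (SE 0.0975), ERAP2, the partner of ERAP1, 0.67 (SE 0.130) and TAPBPL, a tapasin-related peptide editor, 0.64 (SE 0.107). TPP2, another cytosolic peptidase, rose by 0.42 on the log2 scale. CALR, the chaperone calreticulin of the peptide-loading complex, fell by 1.001 on the log2 scale (SE 0.103, adjusted p 9.04e-07 in edgeR), from 1305 ± 81.8 to 652.0 ± 24.8 CPM. PDIA3, another part of that complex, had a log2 fold change of -0.02 (SE 0.0916) and was not called.

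Of the 6 immunoproteasome and activator genes, PSMB8 and PSMB9, which lie beside the TAP genes and encode interferon-induced catalytic subunits, were at 0 counts with 0% of windows at 1 place. PSMB10, the remaining such subunit, had a log2 fold change of -0.19 (SE 0.105, adjusted p 0.136) and was not called. PSME1 (0.76) and PSME2 (0.42), the subunits of the PA28 activator, rose, and PSME3 (-0.44), the nuclear activator, fell. The 3 constitutive catalytic subunits tested, PSMB5, PSMB6 and PSMB7, were all lower, with a median of -0.36. Among all genes tested, 33.2% were lower. The call of PSMB7 was lost without WT replicate 1 (-0.22), HSF1-pLVX replicate 1 (-0.27) or HSF1-pLVX replicate 2 (-0.37).

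The listed transcription factors of class I genes went both ways, with 8 of 17 higher, 7 lower and 2 not called, where 32.7% of all genes tested were higher and 33.2% lower. NLRC5, the class I coactivator, fell from 21.9 ± 2.11 to 13.9 ± 1.63 CPM (-0.65, SE 0.121). RFX5, a subunit of the factor that binds class I and class II promoters, fell by 0.73 on the log2 scale (SE 0.0864). Other subunits of that factor rose, RFXAP by 2.51 (SE 0.313) at a low level, from 0.643 to 3.69 CPM, and RFXANK by 0.28 (SE 0.103). IRF1, an interferon-induced activator, rose by 0.92 (SE 0.0838), from 65.8 ± 0.621 to 124.1 ± 4.03 CPM, and NFKB1, the p50 subunit of NF-kappa B, by 0.74 (SE 0.0836).

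Interferon receptors and kinases were also divided, with 3 of 11 higher, 5 lower and 3 not called. IFNLR1, a chain of the lambda interferon receptor, had a log2 fold change of -1.75, IFNAR1, of the type I receptor, of -0.79 and JAK2 of -0.67, while IFNGR1, of the gamma receptor, had 1.19. Among 36 tested interferon-stimulated genes, 23 were lower, 9 higher and 4 not called, with a median of -0.60, beside 33.2% lower, 32.7% higher and a median of 0.0193 over all genes tested. The largest falls by the naming rule were MX1 (-3.43), RSAD2 (-2.49), IFIT2 (-2.22) and IFIT1 (-2.16), all antiviral effectors.

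Class I-like molecules and ligands of the NKG2D receptor, which natural killer cells use to find stressed cells, included 12 tested genes. Of these, 7 were lower, 3 higher and 2 not called, with a median of -0.60. The shares over all genes tested were 33.2% lower and 32.7% higher. The ligand genes RAET1L (log2 fold change -3.09, SE 0.236), ULBP2 (-1.32, SE 0.107), RAET1G (-1.26, SE 0.174) and RAET1E (-0.71, SE 0.114) fell. ULBP1, another ligand gene, rose (1.49, SE 0.318) at a low level, from 0.696 to 1.97 CPM, as did FCGRT, the neonatal Fc receptor, from 1.151 to 2.91 CPM. CD1D, which presents lipids, had the largest change of the list (4.93, SE 0.287), from 0.294 ± 0.0357 to 9.17 ± 0.913 CPM. MICA, another such ligand in the HLA region, was called lower on its main row (-1.13, SE 0.295), with 46 and 36 counts in WT and 26 and 19 in HSF1-pLVX, but with its alternative rows added it had 177 and 186 against 214 and 206 counts and a log2 fold change of -0.05 (SE 0.145, adjusted p 0.785), so its call depended on the rows. HLA-G, a non-classical heavy chain gene, was at 0 counts in all libraries. Of the 12 class II genes, 10 were at 0. CD74, the invariant chain, rose (1.12), and CTSS, the protease that degrades it, fell (-0.78).

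**Figure D5:**
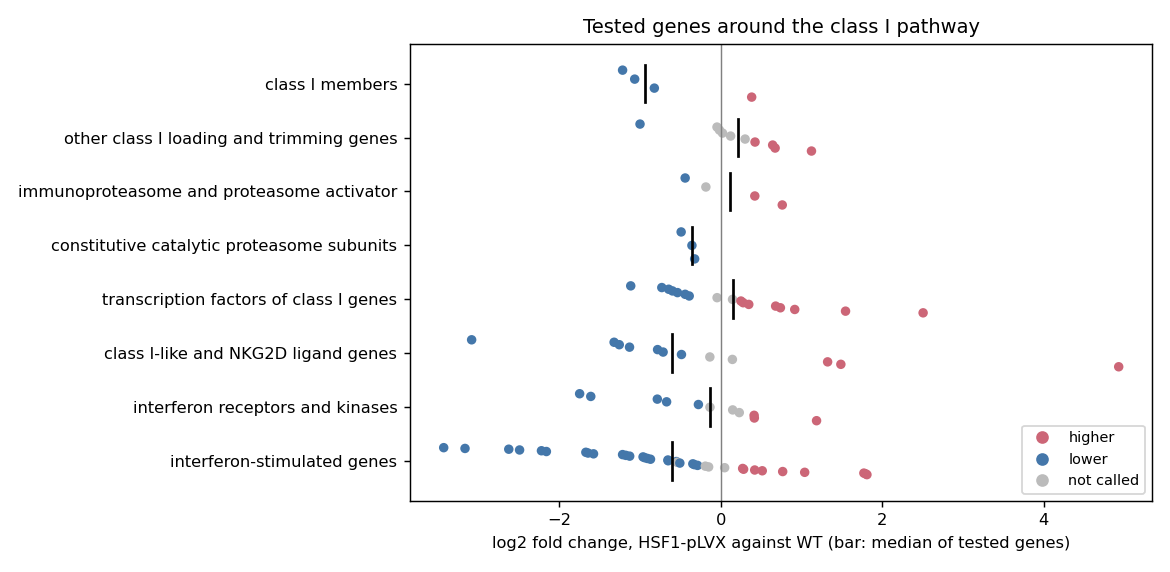
Log2 fold change of HSF1-pLVX against WT for every tested gene of the members and of 7 lists around the class I pathway, coloured by call at adjusted p 0.05, with a bar at each median. The members' median is -0.95, that of the interferon-stimulated genes -0.60 and that of the loading and trimming genes 0.21.

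The genes whose pattern over the 4 libraries was most like the mean of HLA-B and HLA-C, by the Euclidean distance of centred log2 CPM, were SLC39A4 (0.0427), AGPAT2 (0.0442), SH3BP5L (0.0480), BAHD1 (0.0511) and HERC3 (0.0531). Of 9096 genes compared, 28 lay within 0.1. HERC3, for example, was at 42.7 and 39.6 CPM in WT and at 19.4 and 17.9 CPM in HSF1-pLVX. HLA-E and HLA-F at 0 gave no pattern, nor did TAP1 and TAP2. Among tested neighbours of B2M, PATL2 and SORD2P were not called, at 8 to 11 and 23 to 44 counts per library.

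By the ratio rule of the study, a change above 2-fold in the same direction in both replicate numbers on the normalised values, HLA-B (ratios 0.398 and 0.454) and HLA-C passed as lower, where 6.42% of the 22321 rows did. B2M (0.579 and 0.532) and ERAP1 (1.22 and 1.33) did not pass.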

How the data were processed

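RNA-seq libraries of MCF10A cells were analysed, 2 WT and 2 HSF1-pLVX, grouped by their labels. The authors aligned paired-end reads to hg38 with HISAT2 2.0.5, processed them with SAMtools 1.13 and deposited raw counts per gene from featureCounts 1.6.5. Their second table holds log2-like values normalised by the authors with DESeq2 1.32.0, used here for the ratio rule and as an alternative. Strand, overlap and multi-mapping settings are not given in the sources used here.

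Library totals were 18688109 to 24184285 counts, of which 0.0998% to 0.115% lay outside the main chromosomes. Counts were tested with edgeR 4.0.16 (R 4.3.3), with TMM scaling, filterByExpr defaults, a group term and the quasi-likelihood test, and Benjamini-Hochberg adjustment over 15830 genes. Calls were made at an adjusted p of 0.05. The procedure was also run on simulated data in which far fewer genes changed than were called here. That run therefore does not test the procedure at this share of calls. Same-numbered libraries were not treated as pairs, since no label says that a number marks a shared culture. Rows on alternative contigs were given to a member when at least 10% of their 31-base words matched its exons and at least 1.5 times those of the next gene. Single windows of 76 bases inside exons were searched in the contigs of hg38 held here, which lack 938 listed rows on further contigs or patches. The share with 1 place is therefore an upper limit for such windows. It is not one for read pairs, since mates and reads across exon junctions were not considered. Motifs were searched in RefSeq promoter sequences.

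Named genes were all members, HSF1, up to 4 called genes per list with the largest change and a mean of at least 5 CPM, NLRC5, IRF1, PSMB8, PSMB9, PSMB10, ERAP2, TAPBPL and HLA-G, the 5 genes of most similar pattern and chromosome neighbours. Some items that the lists hold are not reported here. The members and lists were chosen with earlier results of these data known. MICA, ULBP1, FCGRT, CD1D, ITGAM, LAPTM5, PDIA3, TPP2, RFXAP, RFXANK, HLA-DRB5 and the other class II genes named were added after their values were seen. Alternatives covered normalisation (RLE, library size, upper quartile), filters, DESeq2 1.42.0, limma 3.58.1 voom, the replicate block, each library left out, added contig rows, thresholds and the deposited values.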

Additional observations from a re-analysis of the deposited data

How the results depend on the processing

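The log2 fold changes of HLA-B, HLA-C, B2M and ERAP1 kept their direction in the 14 alternatives run for each, and their calls wherever a test was run. They ranged from -1.34 to -1.09 for HLA-B, from -1.15 to -0.89 for HLA-C, from -0.87 to -0.74 for B2M and from 0.30 to 0.47 for ERAP1, whose largest adjusted p, 0.0438, came without HSF1-pLVX replicate 2. In the 4 alternatives that leave out a library, the lone library of a group is assumed to vary like the other group, which alone gives the spread. Requiring at least 2-fold left 0 members higher and 2 lower, with B2M and ERAP1 no longer called, and 2358 genes higher and 2218 lower, by the construction of that threshold. With the replicate block, whose fit leaves 1 residual degree of freedom, HLA-B was at -1.21, HLA-C at -1.07, B2M at -0.82 and ERAP1 at 0.38, with 5138 genes higher and 5171 lower; same-numbered libraries did not deviate together (correlation 0.000143 over all genes and -0.113 over genes above 8 CPM). No call of a member changed under the block. Upper-quartile scaling moved the median of all genes to 0.10 on the log2 scale.

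Each group has 2 libraries. For HLA-E, HLA-F, TAP1, TAP2 and TAPBP the main rows hold too few counts for any statement on a change, and the part of sequence shared between places in the reference was not tested.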
